A study of Mus musculus with 6 samples.

Results

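The genes described here are 40 genes of autophagy and of the control of lysosomes, chosen by name for their known roles, with earlier results of these data known. All 40 were found by symbol among the 51912 gene IDs of the count table, all are protein coding, and all were among the 19017 genes with enough counts to test. RNA was profiled in 6 libraries of primary osteoblasts, which build bone. The cells came from skull caps (calvaria) of C57BL/6J pups aged 1 d that carry Mark3 flox/flox, in which loxP sites flank Mark3. The Mark3-KO group (3 libraries, labelled Mark3-/-) was exposed to adenovirus carrying Cre recombinase for 24 h, which cuts out the loxP-flanked part of Mark3. The WT group (3 libraries, labelled wild-type) carried the same flox/flox alleles and was exposed to adenovirus carrying GFP for the same 24 h. Both groups therefore held flox/flox cells that had been given a virus, and Cre and the deletion changed together. The comparison asks which transcripts differ between cells given Cre, to delete Mark3, and cells given GFP. Mark3 encodes a kinase of microtubule-associated proteins.

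Autophagy wraps part of the cytoplasm in a double membrane and delivers it to the lysosome for breakdown. A kinase complex around ULK1 or ULK2 starts the process, a lipid kinase complex around Beclin 1 marks the growing membrane, ATG9 and ATG2 supply lipid, and a chain of enzymes resembling ubiquitin ligation attaches the Atg8 proteins (LC3 and GABARAP) to that membrane. Receptors such as p62 tether cargo to the Atg8 proteins, and the transcription factors TFEB, TFE3 and MITF switch on genes of lysosomes and autophagy. In mice, loss of autophagy genes in cells of the osteoblast lineage has been linked to low bone mass.

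Library totals ran from 56925883 to 71445243 counts in Mark3-KO and from 57154757 to 67044409 counts in WT. Levels are given as CPM, counts scaled to a common library size with TMM (the trimmed mean of M-values), and fold changes as log2 of Mark3-KO over WT. Whether the libraries came from separate cultures is not stated in the labels, so the p-values measure only how much these libraries vary, and that variation may be technical. Mark3 itself had 3506, 3120 and 2712 counts in the Mark3-KO libraries, against 6575, 6475 and 7887 in the WT libraries, which is a log2 fold change of -1.27 (SE 0.10 and adjusted p 0.0153 in edgeR). The loss of its transcript was thus partial, at 48.0 ± 4.14 CPM in Mark3-KO and 116 ± 2.78 CPM in WT (SD, n = 3 each), and the counts cover the whole gene, so they do not show how much of the loxP-flanked part was left. Of the osteoblast markers, Runx2, Sp7, Alpl and Col1a1 were present in every library, while Bglap (osteocalcin), a marker of mature osteoblasts, was below 1 CPM in each. The 11 osteoblast markers summed to 14603 to 21525 CPM in Mark3-KO and 21647 to 43212 CPM in WT, and 5 chondrocyte markers to 351 to 583 CPM in Mark3-KO and 668 to 1731 CPM in WT. Most of the difference in these sums lay in the collagen genes Col1a1, Col1a2 and Col2a1. Alpl (-0.62), Bglap (-1.71), Bglap2 (-1.62) and Col9a1 (-0.98) were also lower in every Mark3-KO library on the log2 scale. With the correction for GC content described later, Alpl came to 0.33 and Col2a1 to -0.05. Col1a1 came to -0.54, Col1a2 to -0.96, Bglap to -0.82, Bglap2 to -0.77 and Col9a1 to -0.68. Runx2, Sp7, Ibsp, Sparc, Sox9 and Acan overlapped between groups, and Spp1 was higher in every Mark3-KO library (0.34, edgeR adjusted p 0.0526). Spp1 came to 0.01 with the GC correction. The 12 macrophage and osteoclast markers, from cells rich in lysosomes, summed to 246 to 288 CPM in Mark3-KO and 215 to 243 CPM in WT, most of it from Lyz2, while Dcstamp was at 0 in 4 of the 6 libraries. These markers had both signs. Mrc1 (0.69), Ptprc (0.67) and Adgre1 (0.53) were higher and Csf1r (-0.51) lower in every Mark3-KO library on the log2 scale. Acp5 (-1.04), Cd14 (-0.80) and Tyrobp (-0.66) were negative with overlap. With the GC correction Mrc1 came to 0.16, Ptprc to 0.08, Adgre1 to 0.38 and Csf1r to 0.07. Acp5 came to -0.36, Cd14 to -0.37 and Tyrobp to -0.07. The 5 endothelial markers summed to 4.26 to 4.59 CPM in Mark3-KO and 4.17 to 4.52 CPM in WT. Among them Pecam1, below 1 CPM in each library, was higher in every Mark3-KO library (1.29, edgeR adjusted p 0.0506). It came to 1.33 with the GC correction, while Cdh5, Kdr and Tek overlapped between groups. The 5 skeletal muscle markers summed to 2 to 5.11 CPM in Mark3-KO and 7.39 to 14.1 CPM in WT. The melanocyte markers Tyr and Dct were at 0 in all 6, and Mlana was at 0 in 2. Pmel, the other melanocyte marker, was present below 1 CPM in every library. It was lower in every Mark3-KO library (-1.19, edgeR adjusted p 0.0506), and came to -0.56 with the GC correction. The part of these other cells in the values below was not tested, and in bulk RNA fewer cells of a type and less RNA per cell cannot be told apart.

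None of the 40 genes reached an adjusted p below 0.05 (quasi-likelihood test of edgeR, Benjamini-Hochberg adjustment over all genes), a threshold that 0.216% of all tested genes passed, 0.0473% as higher and 0.168% as lower. Their adjusted p-values began at 0.0506, just above the threshold, and 12 of the 40 lay below 0.055, beside 4707 of all 19017 tested genes. At an unadjusted p below 0.05 there were 23 of the 40 (9 higher and 14 lower in Mark3-KO), beside 45.7% of all tested genes (20.8% higher and 24.8% lower). The DESeq2 Wald test passed 18 of the 40 (6 higher and 12 lower), beside 36.4% of all genes (14.6% higher and 21.7% lower), and limma-voom passed 0. Leaving out WT replicate 3 moved the edgeR count to 14 of 40 (32.9% of all genes passed) and leaving out Mark3-KO replicate 1 moved it to 16 (32.1%), whereas it stayed at 0 without any of the other 4 libraries.

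The 40 genes had values of both signs. Largest in size were the lower values of the transcription factor gene Tfeb (-2.33), the lipid transfer gene Atg2a (-1.90), the LC3 gene Map1lc3a (-1.83) and the initiation gene Atg101 (-1.65). The highest positive values were those of Rb1cc1 (0.63), which encodes the scaffold of the initiation complex, and of the lysosomal membrane gene Lamp2 (0.61). The median log2 fold change of the 40 was -0.08, beside 0.02 for all tested genes, with 15 values above and 25 below 0. For 31 of the 40 the CPM ranges of the groups were separate, beside 53.3% of all tested genes. Of these, 10 were higher in Mark3-KO (25.8% of all genes) and 21 lower (27.5% of all genes). With scaling by library size alone, the median of all genes was 0.13 and that of the 40 was 0.04, so directions close to 0 are relative to the TMM scale.

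**Figure D1:**
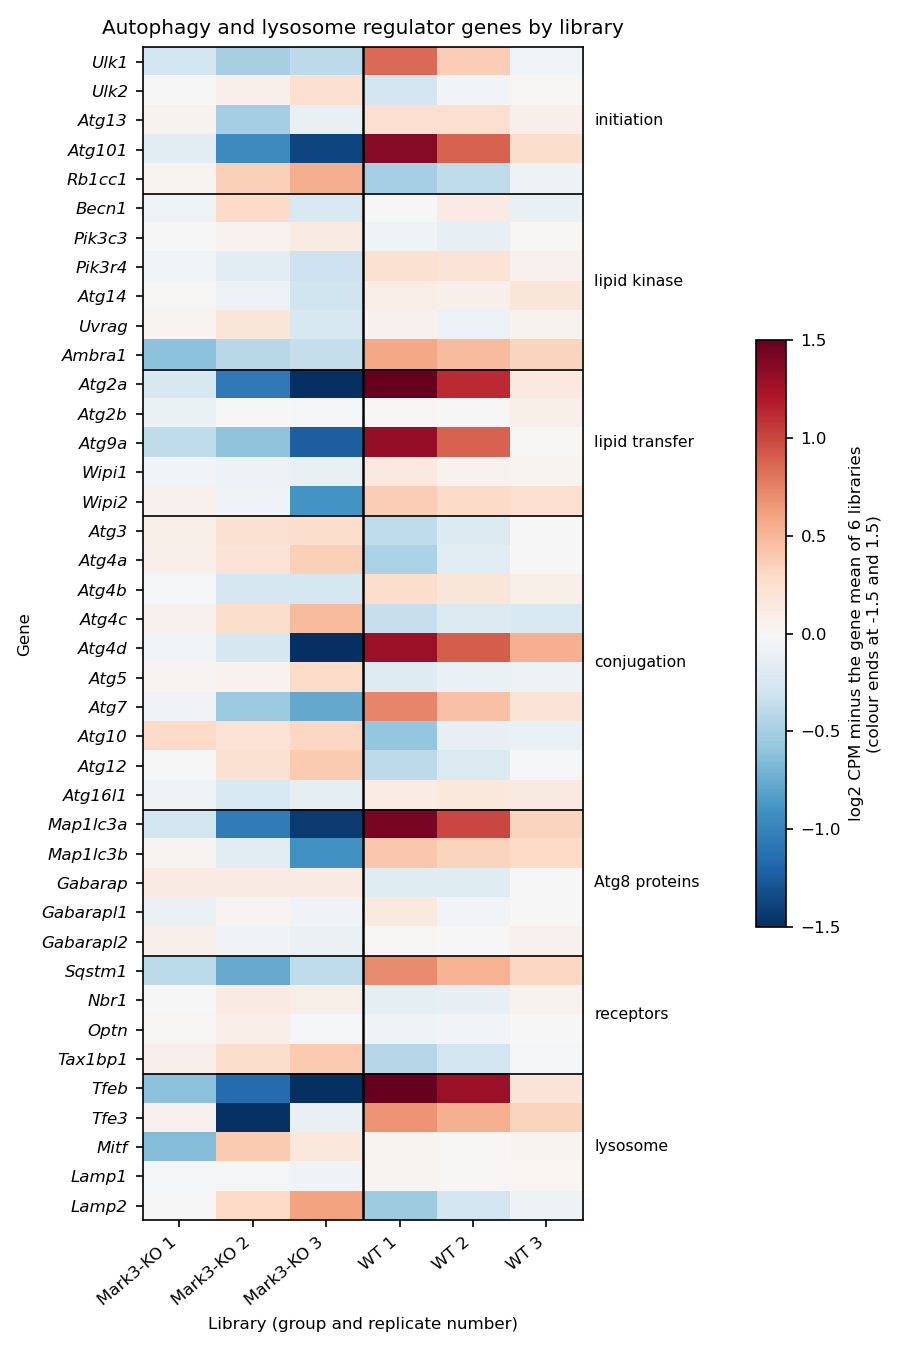
Level of each of the 40 genes (rows, grouped by role) in each of the 6 libraries (columns, Mark3-KO left of WT), coloured by log2 CPM minus that gene's mean over the libraries. Tfeb, Atg2a, Map1lc3a and Atg101 are low in Mark3-KO and high in WT replicates 1 and 2, Rb1cc1, Lamp2 and Tax1bp1 are high in Mark3-KO replicates 2 and 3 and low in WT replicates 1 and 2, and Lamp1 is close to its mean in every library.

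Among the transcription factors that control lysosomal genes, Tfeb (chromosome 17, 47737030 to 47792419, GRCm38) was the least abundant of the 40 genes. It had 76, 42 and 32 counts in the Mark3-KO libraries, against 337, 212 and 121 in the WT libraries. These correspond to 1.03, 0.705 and 0.521 CPM in the Mark3-KO libraries, against 5.78, 3.85 and 1.80 CPM in the WT libraries. The groups did not overlap, but WT replicate 3 lay closer to the Mark3-KO libraries than to WT replicate 1. The log2 fold change of Tfeb was -2.33 (SE 0.48 and adjusted p 0.0506 in edgeR), and between -2.68 and -1.90 with any 1 library left out. Tfe3, which encodes a factor of the same family, measured 52.5, 17.9 and 46.3 CPM in the Mark3-KO libraries, against 80.2, 72.3 and 63.1 CPM in the WT libraries. Every Mark3-KO library was below every WT library, and Mark3-KO replicate 2 was far below the other two. Its log2 fold change was -0.88 (SE 0.37 and adjusted p 0.113 in edgeR), and -0.55 without Mark3-KO replicate 2. Mitf, the third member of the family, measured 3.31, 6.83 and 5.82 CPM in Mark3-KO and 5.35, 5.28 and 5.35 CPM in WT. Its groups overlapped, with the Mark3-KO libraries on both sides of nearly equal WT libraries, and its log2 fold change of -0.003 turned to 0.11 with scaling by library size alone.

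TFEB, TFE3 and MITF bind E-boxes, of which CACGTG is the core, and the start regions of the genes are shown for where that core lies. RefSeq promoter windows (GRCm38.p6, 250 bases before to 50 after a start) were matched by symbol for 34 of the 40 genes. On either strand, CACGTG, which reads the same on both, was in the windows of 5 of the 34 genes (14.7%), beside 8.09% of the 27025 genes in the RefSeq table. These 5 were Lamp1, Atg3, Atg5, Atg7 and Atg14. The windows of the 34 genes had a median GC content of 59.3%, beside 52.7% for all windows. Whether this bears on the shares was not tested. The longer TCACGTGA, which contains the core, was in 1 of the 34 (Atg3), beside 1.12% of all genes. Of the lysosomal genes listed later, 20 of the 52 with a window held CACGTG (38.5%) and 11 held TCACGTGA (21.2%). Stretches of 100 bases upstream of the start are printed 5′ to 3′ on the strand of the gene for Lamp1, Atg3 and Atg5, in which each core lies before the start and which differ in the number of cores and in fold change. Capitals mark each CACGTG.
Lamp1 (chr8:13159053-13159152, plus strand): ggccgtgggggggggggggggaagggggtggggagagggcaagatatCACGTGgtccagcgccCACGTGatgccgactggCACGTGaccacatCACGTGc
Atg3 (chr16:45158688-45158787, plus strand): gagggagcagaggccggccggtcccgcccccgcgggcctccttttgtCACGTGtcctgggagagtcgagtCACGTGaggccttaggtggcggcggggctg
Atg5 (chr10:44268239-44268338, plus strand): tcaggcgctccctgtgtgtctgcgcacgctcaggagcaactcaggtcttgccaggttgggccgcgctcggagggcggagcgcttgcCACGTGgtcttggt
Lamp1 holds the core 4 times and Atg3 holds it 2 times, while Atg5 has a single copy. The 5 genes with the core had a median log2 fold change of -0.06 and the 29 without it -0.16, and with the correction for GC content described later these medians were -0.10 and -0.09. With the core present, the values of single genes ran from -0.91 for Atg7 to 0.38 for Atg3. The Atg7 window (chromosome 6, 114670846 to 114671145) lies wholly inside the gene, whose annotated start is 114643097, so it marks an internal start. The Atg14 window also lies inside the annotated limits of its gene. A match in these letters does not show binding.

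The 2 genes of lysosomal membrane proteins had unlike values before the correction for GC content described later. With that correction they came to 0.03 for Lamp1 and 0.04 for Lamp2. Lamp1 (chromosome 8, 13159161 to 13175338), with its 4 upstream E-box cores, was among the most even of the 40 genes, with 622, 618 and 606 CPM in the Mark3-KO libraries, against 645, 635 and 643 CPM in the WT libraries. Although the groups did not overlap, the highest and lowest libraries were close together, and its log2 fold change was -0.06 (SE 0.08 and adjusted p 0.575 in edgeR), or 0.05 with scaling by library size alone. Lamp2 (chromosome X, 38401357 to 38456454), one isoform of which is the receptor of chaperone-mediated autophagy, measured 504, 625 and 766 CPM in the Mark3-KO libraries, against 349, 416 and 480 CPM in the WT libraries. All Mark3-KO libraries were above all WT libraries, and the spread inside Mark3-KO was wide. The log2 fold change of Lamp2 was 0.61 (SE 0.19 and adjusted p 0.0567 in edgeR).

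In the initiation complex, the kinase genes Ulk1 and Ulk2 had log2 fold changes of opposite sign, although Ulk1 turned to 0.38 with the correction for GC content described later. Ulk1, the main initiating kinase, measured 25.0, 21.7 and 23.2 CPM in the Mark3-KO libraries, against 55.1, 39.5 and 29.8 CPM in the WT libraries. Every Mark3-KO library was below every WT library, with WT replicate 1 the highest, and the log2 fold change was -0.83 (SE 0.23 and adjusted p 0.0511 in edgeR). Ulk2 measured 94.0, 99.5 and 111 CPM in Mark3-KO and 76.8, 91.1 and 95.4 CPM in WT. Its groups overlapped and its log2 fold change was 0.21 (edgeR adjusted p 0.211). Atg101 (chromosome 15, 101284272 to 101290945), which encodes a subunit that steadies ATG13, measured 5.05, 2.94 and 2.20 CPM in the Mark3-KO libraries, against 14.7, 10.5 and 6.83 CPM in the WT libraries. It was lower in all Mark3-KO libraries, and its log2 fold change was -1.65 (SE 0.40 and adjusted p 0.0506 in edgeR). Atg13, whose product links the kinase to the complex, measured 38.6, 26.1 and 34.4 CPM in Mark3-KO and 44.3, 44.3 and 39.2 CPM in WT. Here Mark3-KO replicate 1 lay within 1 CPM of WT replicate 3, and the log2 fold change was -0.37 (edgeR adjusted p 0.127). Rb1cc1 (chromosome 1, 6206197 to 6276648), also called FIP200, measured 164, 205 and 233 CPM in the Mark3-KO libraries, against 113, 123 and 152 CPM in the WT libraries. It was higher in all Mark3-KO libraries, with a log2 fold change of 0.63 (SE 0.17 and adjusted p 0.0509 in edgeR). With the GC correction Rb1cc1 came to -0.02 and Atg101 to -0.56. Rb1cc1 shares 558 exon bases with an antisense gene of opposite strand, 4732440D04Rik, which was far less abundant (6.21 CPM in Mark3-KO and 2.53 CPM in WT).

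Of the Beclin 1 lipid kinase complex, Becn1 and Pik3c3 were even between groups. Becn1 (Beclin 1) measured 60.4, 76.6 and 53.7 CPM in Mark3-KO and 62.7, 68.7 and 58.2 CPM in WT, and Pik3c3, its catalytic subunit also called VPS34, 30.5, 31.9 and 33.6 CPM in Mark3-KO and 29.4, 28.3 and 31.0 CPM in WT. Both sets of values overlapped between groups, with log2 fold changes of 0.01 (edgeR adjusted p 0.971) and 0.11 (edgeR adjusted p 0.417). Becn1 shares 3104 exon bases with Cntd1 on the other strand, which was at 0.946 CPM in Mark3-KO and 1.26 CPM in WT. Uvrag, whose product joins the complex for endosome traffic and late steps of autophagy, overlapped as well, at 51.9, 57.2 and 42.6 CPM in Mark3-KO and 52.9, 47.4 and 52.2 CPM in WT. Its log2 fold change of -0.01 (edgeR adjusted p 0.967) turned to 0.11 with scaling by library size alone. Pik3r4, the regulatory subunit also called VPS15, measured 43.9, 40.5 and 36.5 CPM in the Mark3-KO libraries, against 52.9, 52.0 and 47.2 CPM in the WT libraries. Atg14, which directs the complex to autophagy, measured 12.3, 11.4 and 9.84 CPM in Mark3-KO and 13.0, 12.8 and 13.7 CPM in WT. Neither overlapped between groups, and the log2 fold changes were -0.33 (edgeR adjusted p 0.0688) and -0.23 (edgeR adjusted p 0.212).

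Ambra1 (chromosome 2, 91730134 to 91918849), which encodes a regulator of Beclin 1 and a substrate receptor of a ubiquitin ligase, had the smallest unadjusted p of the 40 (0.000162). It measured 27.4, 31.4 and 32.7 CPM in the Mark3-KO libraries, against 62.6, 58.0 and 52.7 CPM in the WT libraries. The libraries of each group lay close together and the groups stood well apart, in contrast with Tfeb or Map1lc3a. Its log2 fold change was -0.92 (SE 0.12 and adjusted p 0.0506 in edgeR), and between -0.99 and -0.85 with any 1 library left out. With the correction for GC content described later it was -0.32, with an unadjusted p of 0.0997. Mark3-KO replicate 1 and WT replicate 3 were the libraries of opposite groups nearest each other on the first principal component. Between them the log2 ratio of Ambra1 was -0.95, the most negative of the 40 genes. This pair, a single library of each group, was chosen after seeing the data. Its log2 ratios still had a Pearson r of -0.72 with the GC content of transcripts over the 40 genes.

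All 5 genes of lipid transfer and of binding to the lipid mark had negative log2 fold changes and no overlap between groups, beside 27.5% of all tested genes without overlap and lower, although Atg2b turned to 0.04 with scaling by library size alone and Wipi1 to 0.22 with the correction for GC content described later. Atg2a (chromosome 19, 6241668 to 6262335), whose product moves lipid into the growing membrane, measured 14.8, 8.31 and 6.18 CPM in the Mark3-KO libraries, against 52.0, 38.0 and 19.4 CPM in the WT libraries. Atg9a, which encodes a lipid scramblase of the vesicles that seed that membrane, had 1823, 1264 and 844 counts in the Mark3-KO libraries, against 4666, 3278 and 2184 in the WT libraries. In both genes WT replicate 1 was far above WT replicate 3, and the Mark3-KO libraries were uneven too. The log2 fold changes were -1.90 (SE 0.45 and adjusted p 0.0506 in edgeR) for Atg2a and -1.53 (SE 0.36 and adjusted p 0.0506 in edgeR) for Atg9a. Atg9a shares 1832 exon bases with Gm29253, which was at 0.0701 CPM in Mark3-KO and 0.224 CPM in WT. Atg2b, the other copy of the lipid transfer gene, measured 83.9, 89.5 and 88.7 CPM in Mark3-KO and 90.7, 89.7 and 95.4 CPM in WT, with a log2 fold change of -0.07 (edgeR adjusted p 0.508). The lipid-binding genes Wipi1 and Wipi2, of which WIPI2 brings in ATG16L1, came to -0.16 (edgeR adjusted p 0.184) and -0.54 (edgeR adjusted p 0.121). Wipi1 measured 112, 108 and 106 CPM in Mark3-KO and 127, 119 and 118 CPM in WT. Wipi2 measured 91.3, 83.6 and 47.2 CPM in Mark3-KO and 113, 107 and 104 CPM in WT, and its value was -0.31 without Mark3-KO replicate 3, the library with the lowest level.

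The conjugation enzymes divided by gene. The CPM of the groups overlapped for none of the 10, beside the 53.3% of all genes without overlap, with 6 higher and 4 lower in Mark3-KO. With the correction for GC content described later, 3 of the 10 were positive and 7 negative, and the 6 higher genes came to 0.10 for Atg4c, 0.03 for Atg10, 0.02 for Atg12, -0.02 for Atg4a, -0.06 for Atg5 and -0.10 for Atg3. Atg7 (chromosome 6, 114643097 to 114860614), the activating enzyme of both conjugation chains, measured 13.2, 9.31 and 8.04 CPM in the Mark3-KO libraries, against 22.9, 18.7 and 15.9 CPM in the WT libraries. It was lower in all Mark3-KO libraries, with a log2 fold change of -0.91 (SE 0.23 and adjusted p 0.0506 in edgeR). Atg3 and Atg10, the enzymes that act next on the Atg8 proteins and on ATG12, were higher in all Mark3-KO libraries. Atg3 measured 68.8, 75.6 and 77.5 CPM in Mark3-KO and 49.4, 56.1 and 64.7 CPM in WT, and Atg10 9.66, 9.15 and 9.79 CPM in Mark3-KO and 5.28, 7.24 and 7.41 CPM in WT. Their log2 fold changes were 0.38 (edgeR adjusted p 0.064) and 0.52 (edgeR adjusted p 0.0631).

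ATG12 is joined to ATG5, and the pair binds ATG16L1 to form the complex that places Atg8 proteins on the membrane. Atg12 measured 40.5, 47.3 and 53.1 CPM in the Mark3-KO libraries, against 30.8, 34.8 and 39.9 CPM in the WT libraries. Atg5 was also higher in each Mark3-KO library, at 37.0, 37.5 and 43.6 CPM in Mark3-KO and 31.6, 33.8 and 34.2 CPM in WT. Atg16l1 was lower in each, at 32.3, 28.6 and 30.5 CPM in Mark3-KO and 36.3, 37.3 and 36.9 CPM in WT. The log2 fold changes were 0.42 (edgeR adjusted p 0.0773) for Atg12, 0.24 (edgeR adjusted p 0.137) for Atg5 and -0.27 (edgeR adjusted p 0.0842) for Atg16l1.

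The 4 proteases that trim Atg8 proteins and release them from the membrane were again of both signs. Atg4c measured 17.7, 20.3 and 23.4 CPM in the Mark3-KO libraries, against 13.3, 14.5 and 14.4 CPM in the WT libraries, and Atg4a 26.6, 28.7 and 32.2 CPM in Mark3-KO and 18.1, 22.4 and 25.3 CPM in WT. Both were higher in every Mark3-KO library, by 0.54 (edgeR adjusted p 0.0506) and 0.41 (edgeR adjusted p 0.0909) on the log2 scale. Atg4b, the protease of broadest activity, measured 54.3, 46.1 and 45.5 CPM in Mark3-KO and 65.8, 62.0 and 58.2 CPM in WT, with a log2 fold change of -0.35 (edgeR adjusted p 0.0615). Atg4d measured 8.13, 7.02 and 1.55 CPM in the Mark3-KO libraries, against 20.5, 15.7 and 12.1 CPM in the WT libraries. Mark3-KO replicate 3 was far below the others, and the log2 fold change of Atg4d was -1.53 (SE 0.57 and adjusted p 0.0836 in edgeR), or -1.10 without that library. Atg4d shares 1405 exon bases with Kri1 on the other strand, which was itself at 16.8 CPM in Mark3-KO and 29.3 CPM in WT, and the library kit does not mark strand, so reads of the shared bases cannot be told apart.

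The Atg8 proteins are the part of the machinery that coats the membrane. Their genes are closely related, and how reads that match several genes were counted is not given in the sources used here. Map1lc3a (chromosome 2, 155276297 to 155278073), which encodes LC3A, measured 13.5, 7.94 and 6.10 CPM in the Mark3-KO libraries, against 44.2, 33.1 and 20.8 CPM in the WT libraries. The groups did not overlap, and WT replicate 3 lay between the other WT libraries and Mark3-KO replicate 1. Its log2 fold change was -1.83 (SE 0.38 and adjusted p 0.0506 in edgeR). Map1lc3b, which encodes the widely used autophagosome marker LC3B, measured 87.3, 76.0 and 45.2 CPM in the Mark3-KO libraries, against 112, 107 and 104 CPM in the WT libraries. The WT libraries were nearly equal and Mark3-KO replicate 3 was far below the other two, and the log2 fold change of -0.63 (SE 0.23 and adjusted p 0.0822 in edgeR) became -0.40 without Mark3-KO replicate 3.

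Gabarap (chromosome 11, 69991143 to 69994951) measured 371, 372 and 372 CPM in the Mark3-KO libraries, against 301, 300 and 342 CPM in the WT libraries. The 3 Mark3-KO libraries were almost equal and above all WT libraries, and the log2 fold change was 0.24 (SE 0.09 and adjusted p 0.085 in edgeR). Its relatives Gabarapl1 and Gabarapl2 overlapped between groups, at 44.8, 49.4 and 46.4 CPM in Mark3-KO and 53.1, 46.8 and 48.1 CPM in WT for Gabarapl1 and 33.1, 30.2 and 29.3 CPM in Mark3-KO and 31.8, 31.6 and 32.8 CPM in WT for Gabarapl2. Their log2 fold changes of -0.08 (edgeR adjusted p 0.579) and -0.05 (edgeR adjusted p 0.713) turned to 0.04 and 0.06 with scaling by library size alone.

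Among the cargo receptors, Sqstm1 (chromosome 11, 50199366 to 50210827), which encodes p62, measured 126, 99.5 and 129 CPM in the Mark3-KO libraries, against 274, 240 and 207 CPM in the WT libraries. Each Mark3-KO library was below each WT library, with a clear gap between the groups. The log2 fold change of Sqstm1 was -1.02 (SE 0.15 and adjusted p 0.0506 in edgeR), and between -1.13 and -0.92 with any 1 library left out. Sqstm1 shares 580 exon bases with Mrnip on the other strand, which was at 0.798 CPM in Mark3-KO and 1.58 CPM in WT. The unadjusted p of Sqstm1, 0.000328, was the second smallest of the 40. Tax1bp1, a receptor of ubiquitin-tagged cargo, measured 269, 306 and 335 CPM in the Mark3-KO libraries, against 189, 209 and 253 CPM in the WT libraries. It was higher in all Mark3-KO libraries, with a log2 fold change of 0.48 (SE 0.14 and adjusted p 0.0536 in edgeR). With the correction for GC content described later, Tax1bp1 came to -0.05 and Sqstm1 to -0.43. Nbr1, a partner of p62, measured 170, 187 and 182 CPM in Mark3-KO and 156, 157 and 177 CPM in WT. Optn (optineurin), a receptor of damaged mitochondria and bacteria, measured 25.1, 26.5 and 24.5 CPM in Mark3-KO and 23.7, 24.2 and 24.9 CPM in WT. Both overlapped between groups, with log2 fold changes of 0.14 (edgeR adjusted p 0.292) and 0.07 (edgeR adjusted p 0.63).

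**Figure D2:**
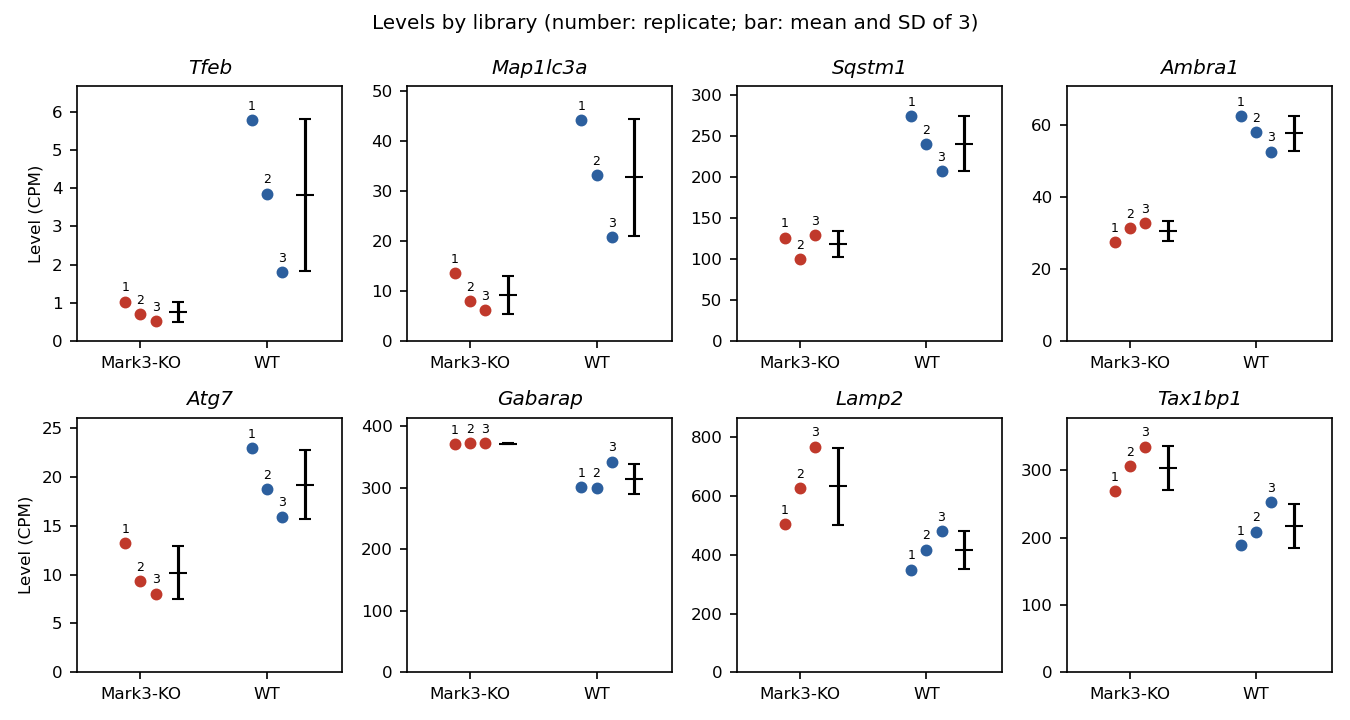
CPM of 8 genes in each library (points, numbered by replicate) with the mean and SD of 3 libraries per group, Mark3-KO left of WT and each axis starting at 0. For Sqstm1 and Ambra1 the gap between groups is wide beside the spread inside each, for Tfeb and Map1lc3a the WT libraries are spread widely, and Gabarap, Lamp2 and Tax1bp1 are higher in every Mark3-KO library.

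The fold changes of the 40 genes varied with the GC content of their transcripts. Across the 40 genes, whose transcripts held between 38.8% and 61.3% GC, the log2 fold change had a Pearson r of -0.92 and a Spearman rho of -0.94 with GC content. The points share the same 6 libraries, and the same relation over 18965 tested genes with a known GC content had a Pearson r of -0.74. After the GC correction described next, r was -0.46 over the 40 genes and -0.02 over all. Above 49.2% GC, the median of all tested genes, 3 of the 40 were positive and 21 negative, and at or below it 12 were positive and 4 negative. Tfeb (61.3%) and Map1lc3a (61.1%) had the most GC and Rb1cc1 (38.8%) and Lamp2 (40.9%) the least. Inside the WT group, where no library had Cre, the log2 ratio of WT replicate 1 to WT replicate 3 also had an r of 0.90 with GC content over the 40 genes, and was 1.68 for Tfeb and -0.46 for Lamp2. Inside the Mark3-KO group, that of replicate 3 to replicate 1 had an r of -0.71. These libraries were chosen after seeing that they stood farthest apart within their groups.

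When the trend with GC content was fitted in each library and removed, the values changed in size and in part in sign. None of the 40 passed in edgeR's test after this correction, beside 0.405% of all genes, and their lowest adjusted p was 0.102. At an unadjusted p below 0.05 there were 15 of the 40 (4 higher and 11 lower), beside 25.1% of all genes (2183 higher and 2592 lower of 19017). Tfeb came to -0.79, Atg2a to -0.60, Atg101 to -0.56, Atg7 to -0.52, Sqstm1 to -0.43, Map1lc3a to -0.39 and Ambra1 to -0.32 on the log2 scale. Lamp2 came to 0.04 and Atg4c to 0.10. Of the 40 genes, 11 changed sign. Among these Ulk1 came to 0.38, Gabarapl1 to 0.45 and Wipi1 to 0.22, and Rb1cc1, Tax1bp1 and Atg3 to -0.02, -0.05 and -0.10. Gabarap, with 50.6% GC, was larger after the correction (0.36) than before it (0.24).

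A further fit used the 4 libraries nearest each other on the first principal component, chosen after seeing the data. These were Mark3-KO replicates 1 and 2 and WT replicates 2 and 3. They still differed in the median log2 level of the GC-richest genes, relative to each gene's mean. It was -0.207 and -0.707 in these Mark3-KO libraries and 0.722 and 0.107 in these WT libraries. Without a GC correction, Ambra1 and Sqstm1 came to -0.91 and -0.99 in this fit. In the GC-corrected fit of all libraries they were -0.32 and -0.43. Tfeb came to -1.69, Atg2a to -1.31, Map1lc3a to -1.33 and Lamp2 to 0.33. None of the 40 passed in edgeR's test there. An unadjusted p below 0.05 was found for 11 (0 higher and 11 lower), beside 17.0% of all genes (947 higher and 2311 lower of 19173). The DESeq2 Wald test and limma-voom were not run on these 4 libraries.

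**Figure D3:**
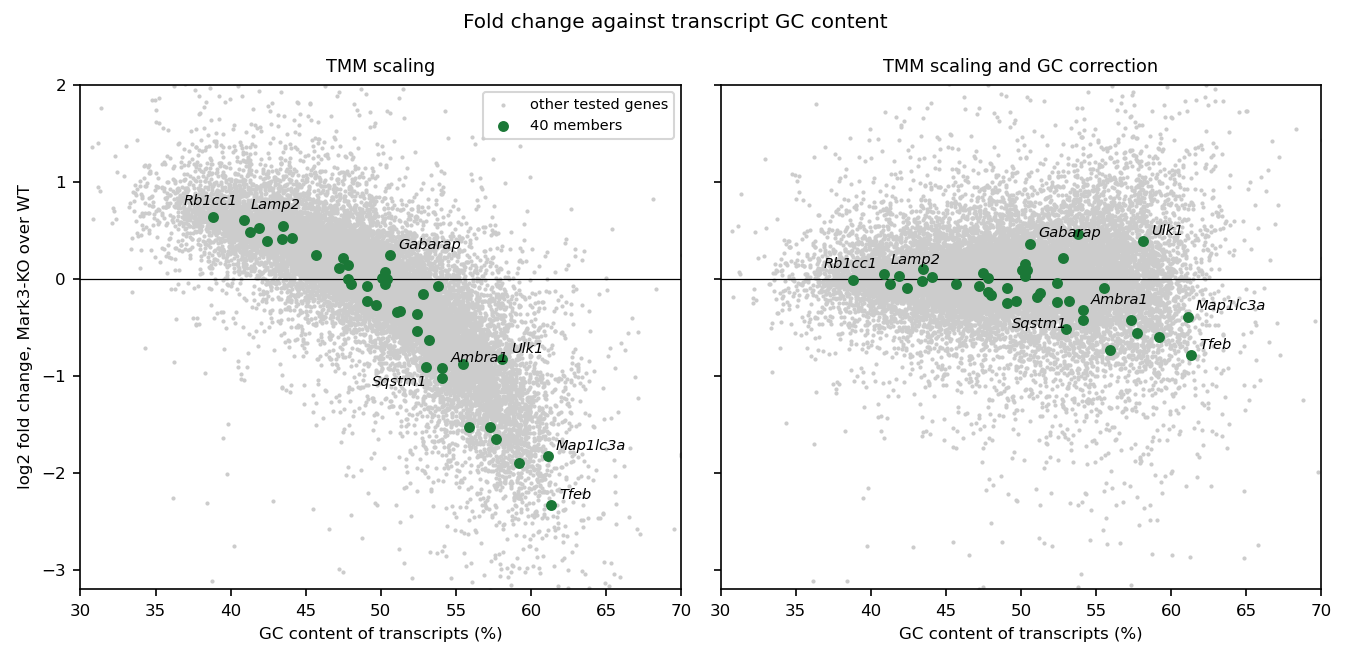
Log2 fold change of Mark3-KO over WT against the GC content of transcripts, for the 40 genes (green) and all other tested genes inside the axes (grey), with TMM scaling (left) and after removal of the GC trend in each library (right). On the left the 40 genes follow the slope of all genes (r of -0.92 and -0.74), with Rb1cc1 at one end and Tfeb at the other, and on the right, where r is -0.46 for the 40, Gabarap and Ulk1 are positive and Tfeb is the most negative.

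Levels per length compare the 40 genes with each other, and are given as CPM per kilobase of merged exons (mean ± SD of 3 libraries). Lamp1 was highest, at 230 ± 3.17 in Mark3-KO and 240 ± 1.90 in WT, followed by Gabarap at 201 ± 0.395 in Mark3-KO and 170 ± 12.9 in WT. These levels of Lamp1 and Gabarap stood far above the third gene, which was Lamp2 in Mark3-KO (66.2 ± 13.7 in Mark3-KO and 43.5 ± 6.85 in WT) and Sqstm1 in WT (35.2 ± 4.88 in Mark3-KO and 71.6 ± 9.96 in WT). The Atg8 genes thus covered a wide range, since Gabarapl1 was at 23.3 ± 1.16 in Mark3-KO and 24.5 ± 1.66 in WT, Gabarapl2 at 13.3 ± 0.854 in Mark3-KO and 13.8 ± 0.278 in WT and Map1lc3b at 9.25 ± 2.91 in Mark3-KO and 14.3 ± 0.586 in WT. Map1lc3a held rank 17 of the 40 in Mark3-KO and rank 5 in WT, at 7.78 ± 3.27 in Mark3-KO and 27.7 ± 9.93 in WT. In WT the levels per length of Gabarapl1 (24.5 ± 1.66), Nbr1 (23.8 ± 1.72) and Tax1bp1 (21.7 ± 3.24) were neighbours in the order, each within the larger SD of the pair from the next, as was Wipi1 (27.5 ± 1.11) from Map1lc3a.

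The genes of the lipid kinase complex and the conjugation enzymes lay between 1 and 20 CPM per kilobase in both groups, apart from Atg3 in Mark3-KO, which was at 23.5, and Atg4d there, which was at 0.766. Ulk2 was at 17.0 ± 1.43 in Mark3-KO and 14.7 ± 1.63 in WT, above its relative Ulk1 at 3.59 ± 0.258 in Mark3-KO and 6.39 ± 1.97 in WT. Lowest were Atg4d (0.766 ± 0.485 in Mark3-KO and 2.22 ± 0.581 in WT), Mitf (0.859 ± 0.293 in Mark3-KO and 0.860 ± 0.00625 in WT) and Tfeb (0.133 ± 0.0456 in Mark3-KO and 0.672 ± 0.351 in WT). Within the transcription factors the order was Tfe3, Mitf, Tfeb in both groups, with Tfe3 at 4.20 ± 1.99 in Mark3-KO and 7.76 ± 0.928 in WT.

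**Figure D4:**
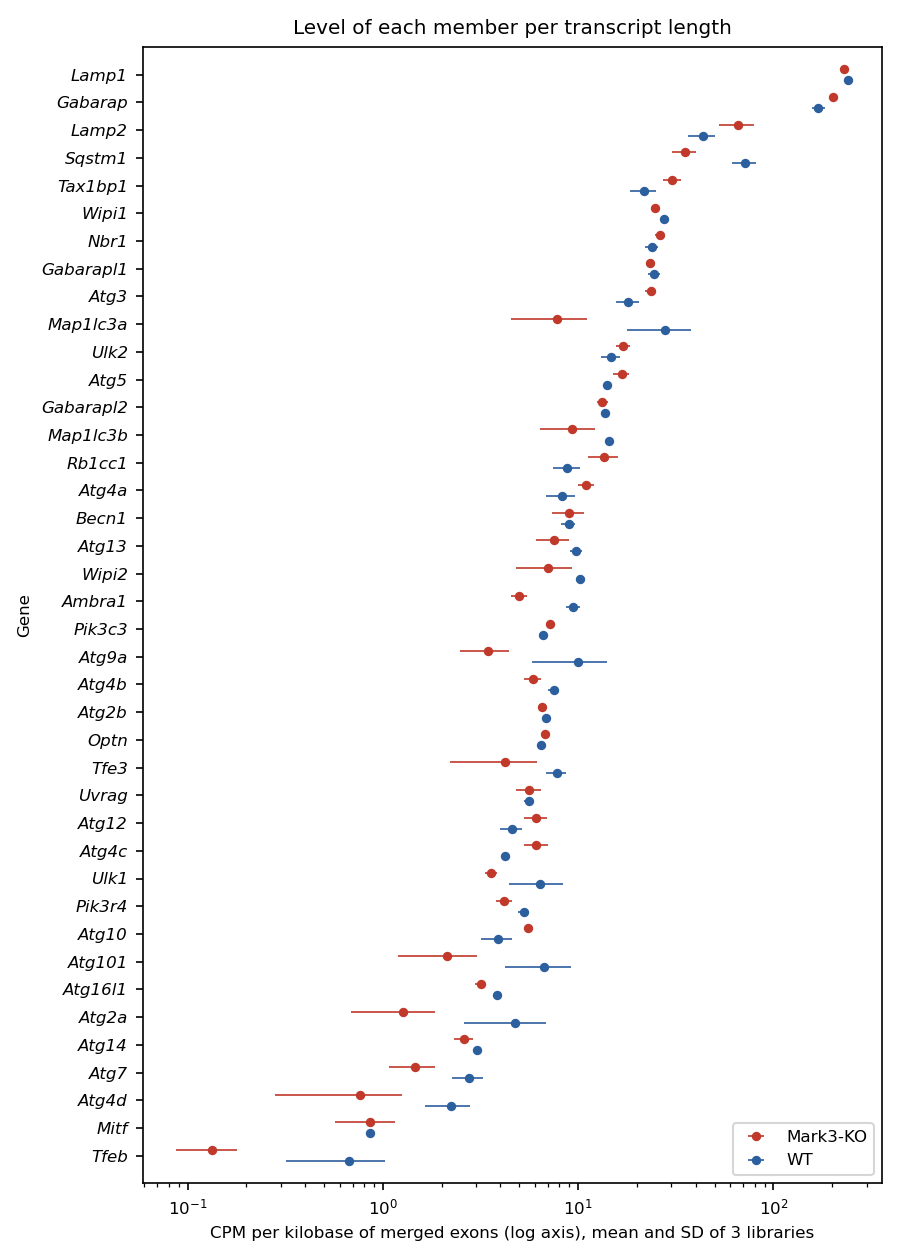
Mean and SD of 3 libraries per group of CPM per kilobase of merged exons, on a log axis, for the 40 genes ordered by their mean over both groups (Mark3-KO above WT in each row). Lamp1 and Gabarap lie far to the right of all others, Tfeb is at the left end, and the points of Map1lc3a, Atg9a, Atg101 and Atg2a lie well apart between groups.

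Further genes of the pathway, listed by role and with earlier results of these data known, were of both signs too. Of 39 further autophagy genes tested, 0 passed in edgeR's test and 18 had an unadjusted p below 0.05 (7 higher and 11 lower), which is 46.2% beside 45.7% of all tested genes. The DESeq2 Wald test passed 13, which is 33.3% beside 36.4% of all genes, and limma-voom passed 0, so these shares were near those of all genes. The median log2 fold change was -0.06, beside 0.02 for all genes, with 16 values positive and 23 negative. The 4 genes with the smallest p were all lower. Tecpr1, which helps autophagosomes meet lysosomes, measured 10.0 ± 2.11 CPM in Mark3-KO and 24.2 ± 7.15 CPM in WT (SD, n = 3 each), with a log2 fold change of -1.28 (edgeR adjusted p 0.0506) and -0.31 after the GC correction. Wdfy3, a scaffold for aggregate clearance, measured 143 ± 5.97 CPM in Mark3-KO and 206 ± 25.9 CPM in WT (log2 fold change -0.53, edgeR adjusted p 0.0506). Vps18, a subunit of the complexes that tether vesicles to lysosomes, measured 5.66 ± 3.10 CPM in Mark3-KO and 25.2 ± 11.8 CPM in WT (log2 fold change -2.15, edgeR adjusted p 0.0506), and Plekhm1, an adaptor of the same fusion step, 15.5 ± 3.03 CPM in Mark3-KO and 30.1 ± 7.33 CPM in WT (log2 fold change -0.96, edgeR adjusted p 0.0506). With the GC correction these came to -0.13 for Wdfy3, -1.06 for Vps18 and -0.03 for Plekhm1. Of the genes with positive values, Fundc1, a receptor for mitochondria, had the smallest p and is named after its values were seen. It measured 36.5 ± 2.73 CPM in Mark3-KO and 26.6 ± 3.58 CPM in WT, with a log2 fold change of 0.46 (edgeR adjusted p 0.0549) and -0.05 after the GC correction.

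Of 66 lysosomal genes, many of them known targets of TFEB, 0 passed in edgeR's test and 37 had an unadjusted p below 0.05 (12 higher and 25 lower), which is 56.1% beside 45.7% of all tested genes. The DESeq2 Wald test passed 27, which is 40.9% beside 36.4% of all genes, and limma-voom passed 0. The median log2 fold change was -0.17, beside 0.02 for all genes, and -0.02 after the GC correction, with 27 values positive and 39 negative before it. The 4 genes with the smallest p were again all lower. The summed level of all 66 lysosomal genes was 6956, 6535 and 6076 CPM in the Mark3-KO libraries. It was 7804, 7523 and 7243 CPM in the WT libraries, without overlap. Naglu, an enzyme of heparan sulfate breakdown, measured 7.37 ± 2.41 CPM in Mark3-KO and 22.2 ± 7.19 CPM in WT (SD, n = 3 each), with a log2 fold change of -1.59 (edgeR adjusted p 0.0506) and -0.29 after the GC correction. Neu1, the lysosomal sialidase, measured 5.48 ± 1.22 CPM in Mark3-KO and 12.3 ± 2.65 CPM in WT (log2 fold change -1.16, edgeR adjusted p 0.0506) and came to -0.45. Idua, which acts on dermatan and heparan sulfate, measured 9.39 ± 0.721 CPM in Mark3-KO and 15.0 ± 1.59 CPM in WT (log2 fold change -0.68, edgeR adjusted p 0.0506) and came to -0.15. Ctsa, the protease that protects NEU1, measured 120 ± 17.9 CPM in Mark3-KO and 194 ± 23.7 CPM in WT (log2 fold change -0.69, edgeR adjusted p 0.0506), and after the GC correction its sign turned to 0.19. Among the positive values Ppt1, an enzyme that removes fatty acids from proteins, had the smallest p and is likewise named after its values were seen. It measured 113 ± 10.9 CPM in Mark3-KO and 79.5 ± 11.2 CPM in WT, with a log2 fold change of 0.50 (edgeR adjusted p 0.0506) and 0.26 after the GC correction. The 40 genes together summed to 3511, 3647 and 3794 CPM in Mark3-KO and 3605, 3573 and 3659 CPM in WT, which overlapped.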

How the data were processed

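Per the labels' protocols, Trizol was used to extract RNA and the TruSeq RNA kit version 2 to build libraries. The authors deposited whole-number counts per Ensembl gene ID in 1 table with a column per library. The submitters' processing notes name the build GRCm38 and the tools DESeq2, StringTie, HISAT2 2.0.5 and FastQC. Their order, settings and the handling of reads shared by genes or positions are not given in the sources used here. Of 51912 IDs, 51719 matched GENCODE M21 (GRCm38), which gave symbols, coordinates, merged exon lengths and transcript GC content, and promoter sequences came from RefSeq (GRCm38.p6).

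Counts were compared in edgeR 4.0.16 under R 4.3.3 with filterByExpr, TMM scaling, the quasi-likelihood test and Benjamini-Hochberg adjustment over all tested genes at 0.05. The SE of a log2 fold change is its size divided by the root of the F statistic. Alternatives were limma-voom (limma 3.58.1), the Wald test of DESeq2 1.42.0, scaling by library size alone or by DESeq2 size factors, no filter, at least 1 CPM in 3 libraries as the filter, a block for the replicate number, a GC correction (a natural spline with 6 degrees of freedom per library, as an offset), both together, and each library left out. A fit on 4 libraries was added after seeing the data. The fits were tested on simulated data. Members and lists were chosen with earlier results of these data known. In each role group up to 3 genes per direction with the smallest p are given by library, and up to 4 of each further list. The kit does not mark strand, and 12 of the 40 genes share exon bases with another gene. No library was a copy of another: between any pair the chi-square per degree of freedom was at least 66.4.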

Additional observations from a re-analysis of the deposited data

How the results depend on the processing

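Of all tested genes, 41 passed in edgeR's test, 27 with limma-voom, 6915 with DESeq2's Wald test, 4510 with scaling by library size alone, 5266 with the filter of 1 CPM, 77 with the GC correction, 0 in the fit of 4 libraries chosen after seeing the data, and 0 to 6460 with 1 library left out (14, 0 and 6460 without WT replicates 1, 2 and 3, and 6265, 3 and 5 without Mark3-KO replicates 1, 2 and 3). Adjusted p-values were dense just above the threshold: 4707 genes lay below 0.055. With library size alone, DESeq2 and the filter of 1 CPM, the 40 genes gave 13, 18 and 15, and 0 to 16 with 1 library left out. The further autophagy genes gave 8, 13 and 10, and 0 to 15 (15 without WT replicate 3, 11 without Mark3-KO replicate 1). The lysosomal genes gave 17, 27 and 26, and 0 to 32 (29 and 32 without those libraries). All 3 lists gave 0 with limma-voom, DESeq2 size factors, no filter, the GC correction and the fit of 4 libraries. The median of the 40 was 0.04 with library size alone and -0.16 to -0.08 with 1 library left out.

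The labels do not state whether the replicate numbers shared by the groups pair the libraries. Deviations of same-numbered libraries from their group means correlated at 0.329, -0.032 and 0.292. The values for replicates 1 and 3 were the highest of all pairs, while WT replicate 2 correlated best with Mark3-KO replicate 1 (0.061). In both groups, levels of GC-rich genes fell from replicate 1 to replicate 3, so these correlations cannot show whether libraries were paired. With the replicate number as a block, 8487 of all genes passed, 24 of the 40, 21 of the further autophagy and 42 of the lysosomal genes. With the block and the GC correction these were 1003, 3 (Atg2a, Atg7 and Gabarap), 1 and 8.

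Log2 fold changes of opposite sign under the GC correction, and with the replicate block added to it, were 0.38 and 0.36 for Ulk1, -0.02 and -0.02 for Rb1cc1, -0.07 and -0.07 for Pik3c3, 0.09 and 0.08 for Uvrag, 0.22 and 0.21 for Wipi1, -0.10 and -0.10 for Atg3, -0.02 and -0.02 for Atg4a, -0.06 and -0.06 for Atg5, 0.45 and 0.45 for Gabarapl1, -0.05 and -0.05 for Tax1bp1, and 0.03 and 0.03 for Lamp1. With library size alone they were 0.11 for Uvrag, 0.04 for Atg2b, 0.04 for Gabarapl1, 0.06 for Gabarapl2, 0.11 for Mitf and 0.05 for Lamp1, and with the filter of 1 CPM 0.02 for Uvrag and 0.03 for Mitf. Becn1 was -0.0041 with limma-voom, -0.0039 without a filter, -0.0044 with the block, and -0.0027, -0.06 and -0.16 without WT replicate 1, WT replicate 3 and Mark3-KO replicate 2. Uvrag, which ranged from -0.11 to 0.10 as each library was left out, turned positive when WT replicate 1 (0.02) or Mark3-KO replicate 3 (0.10) was dropped, and was 0.13 in the fit of 4 libraries, and Mitf ranged from -0.23 to 0.25, the highest value being without Mark3-KO replicate 1. The cause of these changes was not tested.

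With 3 libraries a group, precision is limited by the spread between libraries, and for Tfeb also by depth, since its counts reached down to 32.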

Other observations

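Within the lysosomal genes, the 15 subunits of the V-ATPase, the pump that acidifies the lysosome, summed to 1242, 1248 and 1271 CPM in the Mark3-KO libraries, against 1300, 1244 and 1233 CPM in the WT libraries, which overlapped. The other 51 summed to 5715, 5287 and 4805 CPM in the Mark3-KO libraries, against 6503, 6279 and 6010 CPM in the WT libraries, without overlap. The difference between these 2 sums was not tested, and the subset was separated after values had been seen. The median log2 fold change was 0.01 for the 15 subunits and -0.21 for the other 51. With the GC correction these medians were -0.03 and -0.01.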
